A study of Homo sapiens with 5 samples.

Results

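Retinoic acid, the active form of vitamin A, is made in cells from retinol by way of retinal, and it acts through nuclear receptors that bind DNA together with retinoid X receptors. The amount that reaches the receptors is set by retinal dehydrogenases, which make it, by small binding proteins, which carry it, and by CYP26 cytochrome P450 enzymes, which oxidise it for removal. Several of these genes, among them CYP26A1 and RARB, are themselves induced by retinoic acid in many cell types. The 10 genes described here are CYP26A1, CYP26B1, CYP27C1, ALDH1A2, DHRS3, CRABP1, CRABP2, RARA, RARB and RARG, picked by symbol, and all 10 have a row among the 28278 genes of the count table. CYP27C1 belongs to the group through an earlier step, since its enzyme desaturates retinol rather than breaking down retinoic acid.

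The count table covers messenger RNA of the established human embryonic kidney line HEK293T, in 2 libraries of cells given ascorbic acid (vitamin C) and 3 libraries of control cells, whose genotype field reads WT. All libraries came from the same line, seeded for 24 h, with the medium changed every 6 h. Treatment lasted 24 h for a DNA methylation test or 36 h for an RNA methylation test. The sources used here give neither the dose nor which time applies. Ascorbic acid is a cofactor of the iron-dependent dioxygenases, to which the TET enzymes that oxidise 5-methylcytosine belong. Separate cultures are not stated for the replicates, so p-values may reflect technical spread between libraries only.

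The ascorbic acid libraries held 48015766 and 41739602 gene counts, and the control libraries 35106664 to 57212071. Between 71.3 and 75.9% of the counts from 1 to 10 were even in each library, so the number of fragments behind a value may be below its count. All 6 genes on a short list known to be expressed by HEK293 cells, among them VIM, NEFM and PAX2, had counts in every library. PAX2 had only 22 to 34 counts, and LHX1 had 2 counts in control replicate 3. In edgeR's quasi-likelihood test 2 of the 6, NES and NEFM, were called higher and 0 lower, beside 14.3% of all tested genes called. DESeq2 and limma-voom also called VIM. Of 6 epithelial and keratinocyte markers, 3 of the 4 tested rose in edgeR's quasi-likelihood test, beside 8.53% of all tested genes. The 3 rest on few counts in a library, with 8 to 36 for EPCAM, 2 to 16 for KRT17 and 12 to 44 for SFN. Limma-voom called 2 of these, EPCAM and KRT17, and DESeq2 called 0 and gave no adjusted p for 3 of the 4. The list summed to 4.66 to 4.86 CPM (the count scaled for library size) in ascorbic acid libraries and 2.95 to 3.20 CPM in controls. Of that sum CDH1, which was not called, held 2.62 to 3.09 CPM in ascorbic acid libraries and 2.25 to 2.56 CPM in controls. KRT5 was at 0 in all libraries. Of 9 fibroblast and stellate cell markers none of the 4 tested passed in edgeR's quasi-likelihood test, with 2 at an unadjusted p under 0.05 and 0 called by limma-voom or by DESeq2, which gave no adjusted p for 2 of them. Their summed level was 8.02 to 8.49 CPM in ascorbic acid libraries and 8.19 to 9.76 CPM in controls, with FAP at 0. Of that sum RGS5 held 6.22 to 6.29 CPM in ascorbic acid libraries and 6.80 to 8.55 CPM in controls (log2 fold change -0.32). The other tested markers lay higher with ascorbic acid (PDGFRA 0.58, PDGFRB 1.13 and DES 0.41), on 4 to 50 counts in a library. Of 5 blood cell markers LCP1 was the 1 gene called higher by edgeR and limma-voom, and DESeq2 called 0 of the 3 tested (CD3E was at 0 and the sum was 80.8 to 88.7 CPM in ascorbic acid libraries and 73.6 to 78.0 CPM in controls), and of 3 liver cell markers 1 was tested and did not pass (summed level 0.412 to 0.421 CPM in ascorbic acid libraries and 0.0790 to 0.267 CPM in controls). The part of other cell types in the results below was not tested. In bulk RNA, fewer cells that express a gene and less RNA per cell cannot be told apart.

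The promoters of CYP26A1 and RARB are shown because they hold the classical retinoic acid response element, a direct repeat read by the receptor pair. RefSeq windows running from 250 bases before to 50 bases after a transcription start (GRCh38.p14) were searched on both strands for a hexamer repeated in the same direction with 5 bases between the copies, where a copy could be the consensus AGGTCA or the variant AGTTCA, or either of these with the purine at its start exchanged (GGGTCA being the exchanged consensus and GGTTCA the exchanged variant). The 10 genes have 20 such windows, and 2 of these held a repeat of this relaxed form. That is 10.0% (exact 95% interval 1.24 to 31.7%), beside 0.088% of all 35116 windows. The interval takes the windows as independent draws. Several windows belong to the same gene and the genes were picked by symbol, so it measures no sampling spread. Repeats spaced by 1 or 2 bases were in 0 of the 20 windows. The main search was for AGGTCA in both copies at any of the 3 spacings, and the relaxed form was an alternative to it. The main search found 0 of the 20 windows, beside 0.031% of all windows. CYP26A1 and RARB are known to be induced by retinoic acid, so the higher share with the relaxed form is no independent result. The part of each window before the start site is printed 5′ to 3′ on the plus strand, with the repeated hexamers in capitals.
CYP26A1, chr10:93073643-93073892: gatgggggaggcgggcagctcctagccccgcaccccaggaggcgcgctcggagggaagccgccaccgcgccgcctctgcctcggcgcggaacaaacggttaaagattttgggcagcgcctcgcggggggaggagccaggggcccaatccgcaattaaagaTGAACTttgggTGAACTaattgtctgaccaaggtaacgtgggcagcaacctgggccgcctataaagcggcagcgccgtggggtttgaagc
RARB, chr3:25428013-25428262: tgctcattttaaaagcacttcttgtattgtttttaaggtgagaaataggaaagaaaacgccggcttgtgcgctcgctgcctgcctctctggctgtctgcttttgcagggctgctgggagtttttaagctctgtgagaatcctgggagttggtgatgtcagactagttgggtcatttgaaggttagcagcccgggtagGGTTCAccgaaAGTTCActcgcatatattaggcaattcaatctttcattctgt
In CYP26A1 the repeat begins 90 bases before the start site and lies on the minus strand, where it reads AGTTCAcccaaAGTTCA. In RARB it begins 53 bases before the start site, on the plus strand, and reads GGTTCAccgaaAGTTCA. Each gene has other start sites in RefSeq (2 windows for CYP26A1, 4 for RARB), and counts per gene do not say which start was used. The windows of the 10 genes held a median of 14.5 CpG, against 14 over all windows, and ranged from 1 at 1 start site each of ALDH1A2 and RARB to 41 at the other ALDH1A2 start. A match is a description of these letters and not of binding.

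In control cells the genes differed widely in level. Per kilobase of exon (RPKM from TMM-scaled CPM and the merged exons of GENCODE release 29 basic transcripts), ALDH1A2, the retinal dehydrogenase of the embryonic trunk, stood highest at 38.2 ± 0.865 RPKM (SD, n = 3). The receptor gene RARB followed at 9.19 ± 0.382 RPKM, then DHRS3, whose enzyme turns retinal back into retinol, at 7.78 ± 0.586 RPKM and RARA at 5.18 ± 0.303 RPKM. CYP26A1 had 3.44 ± 0.245 RPKM, CRABP2 had 2.81 ± 0.268 RPKM and RARG had 2.64 ± 0.0326 RPKM. Lowest among detected genes were CYP26B1 at 1.25 ± 0.0189 RPKM and CYP27C1 at 0.687 ± 0.0492 RPKM. Of neighbours in this order, only CRABP2 and RARG overlapped between control libraries. The annotation used for counting is not stated, so the exons counted may differ from these lengths, which the SD does not cover. In ascorbic acid cells RARG, at 3.59 to 3.71 RPKM, stood above CRABP2, at 2.78 to 3.21 RPKM, and the range of CYP26A1, 4.20 to 4.82 RPKM, overlapped that of RARA, 4.75 to 4.81 RPKM. CRABP1, which encodes a cytosolic retinoic acid binding protein, had 0 counts in all 5 libraries. An annotated gene on the opposite strand covers 45.9% of its exon length, and whether reads were counted by strand is not given in the sources used here. A count of 0 allows up to 3 counts, or 0.0524 to 0.0855 CPM, in a library. That bound takes counts as independent and is too low where a fragment gave several counts.

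The effect of ascorbic acid was asked by setting the 2 treated libraries against the 3 controls in a fit over all genes (edgeR's quasi-likelihood test). A gene is called past an adjusted p of 0.05. Since the 10 genes were put together with this comparison already known, their calls and changes are a description and no p is given for them. Of the 9 members that passed the filter on low counts 5 were called, against a background of 14.3% of all 15271 tested genes. Higher were 4 (background 8.53%) and lower was 1 (background 5.76%). Among the 5110 genes of 1 to 20 CPM, the range in which 6 of the 9 lie, the called share was 16.0% (14.0% higher and 2.09% lower). The groups did not overlap in 6 of the 9, beside 43.1% of all tested genes. The median log2 fold change was 0.10 over the 9 genes, 0.00 over all tested genes and 0.08 over the genes of 1 to 20 CPM. Over all genes 1303 were higher and 879 lower, and with library totals in place of TMM factors 1712 were higher and 389 lower.

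**Figure D1:**
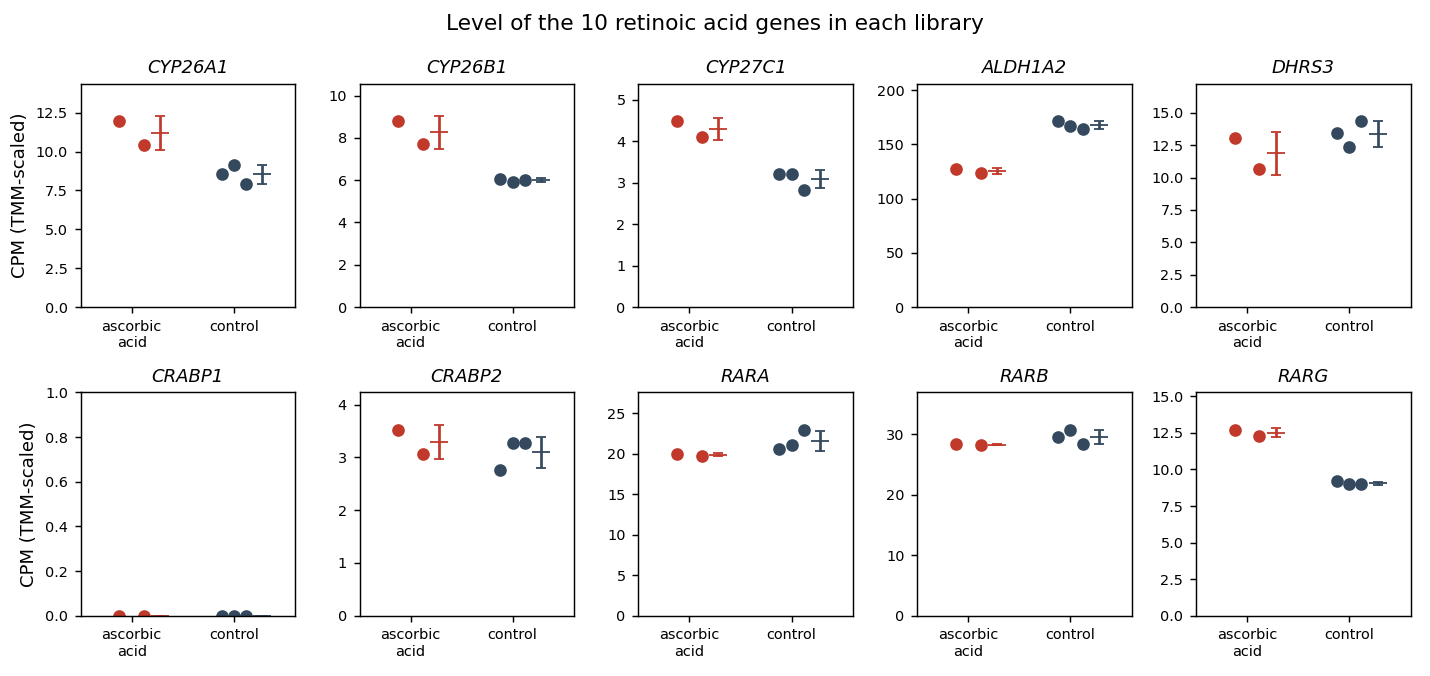
Level of each of the 10 genes in CPM scaled by TMM factors, with a point for each library (2 ascorbic acid libraries in red, 3 control libraries in dark blue) and the mean ± SD beside the points. Each y axis starts at 0. CYP26A1, CYP26B1, CYP27C1 and RARG lie higher in both ascorbic acid libraries than in any control, ALDH1A2 lies lower, and CRABP1 is at 0 throughout.

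Of the synthesis genes, ALDH1A2 was lower with ascorbic acid. ALDH1A2 (chr15:57953424-58497866, minus strand, GRCh38) encodes the dehydrogenase that turns retinal into retinoic acid. It had 127.7 and 123.9 CPM in ascorbic acid libraries, against 171.7, 166.8 and 164.3 CPM in controls. Both treated values lie below all control values, and the distance between the groups exceeds the spread within them. The means were 126 ± 2.75 CPM (SD, n = 2) with ascorbic acid and 168 ± 3.79 CPM (SD, n = 3) in controls, which is 0.75-fold, or a log2 fold change of -0.41 ± 0.05 (SE). In the 17 alternative fits its change ran from -0.44 to -0.37, and it was called in each. An antisense transcript of the annotation covers 4.76% of its exon length, and whether counting used strand is not stated.

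DHRS3 acts against synthesis by returning retinal to retinol. It had 13.1 and 10.7 CPM in ascorbic acid libraries, against 13.4, 12.4 and 14.4 CPM in controls. The groups overlap, and its log2 fold change of -0.17 ± 0.10 was not past the threshold. The 2 treated libraries were unlike each other here, and the change was -0.33 without ascorbic acid replicate 1 and -0.04 without ascorbic acid replicate 2, not past the threshold in either.

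Of the breakdown genes CYP26A1 and CYP26B1 were called higher with ascorbic acid, and both calls ended without ascorbic acid replicate 1. CYP26A1 (chr10:93073475-93077890, plus strand) encodes the main retinoic acid hydroxylase of many embryonic and adult tissues. Its level was 11.98 and 10.43 CPM in ascorbic acid libraries, against 8.56, 9.16 and 7.94 CPM in controls. Its groups do not overlap, and ascorbic acid replicate 1 is the higher of the treated pair. The log2 fold change was 0.39 ± 0.10, or 1.31-fold. Without ascorbic acid replicate 1 it was 0.28 and no longer past the threshold. That was also so with the trend over expression removed by cyclic loess (0.32). An annotated gene on the same strand covers 30.2% of the CYP26A1 exon length and has no row in the table used here.

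CYP26B1 (chr2:72129238-72148038, minus strand) encodes the related hydroxylase known for clearing retinoic acid from limb bud and fetal testis in the mouse. Values of 8.80 and 7.72 CPM in ascorbic acid libraries stood against 6.08, 5.90 and 6.01 CPM in controls. The control libraries lie close together, and both treated libraries lie above them, again with replicate 1 higher. The change was 0.46 ± 0.11 on the log2 scale, or 1.38-fold, and 0.36, not past the threshold, without ascorbic acid replicate 1. CYP26B1 counts per 100 CYP26A1 counts were 73.7 ± 0.351 with ascorbic acid (SD, n = 2) and 70.3 ± 5.66 in controls (SD, n = 3), a difference smaller than the spread between controls. CYP26C1, the remaining CYP26 gene, had 0 to 3 counts in every library and was too low to test.

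CYP27C1 (chr2:127184120-127220078, minus strand) encodes the retinol desaturase that makes vitamin A2 in human skin. It had 4.49 and 4.12 CPM in ascorbic acid libraries, against 3.22, 3.21 and 2.83 CPM in controls. The groups do not overlap. Its log2 fold change of 0.48 ± 0.15, or 1.39-fold, rested on the fewest counts of the called genes, with 218 and 176 in ascorbic acid libraries and 98 to 181 in controls. Leaving out ascorbic acid replicate 1 (0.41), ascorbic acid replicate 2 (0.53), control replicate 1 (0.52) or control replicate 3 (0.42) each took it out of the called genes. So did DESeq2 (0.47), cyclic loess (0.35) and thinning to the smallest library (0.43).

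Among the binding proteins only CRABP2 could be tested, since CRABP1 was not detected. CRABP2 carries retinoic acid to its receptors in the nucleus. It had 3.53 and 3.06 CPM in ascorbic acid libraries, against 2.75, 3.26 and 3.26 CPM in controls. The groups overlap, and the log2 fold change of 0.10 ± 0.16 was not past the threshold. Its sign turned without ascorbic acid replicate 1 (-0.004) and with cyclic loess (-0.04).

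Of the 3 receptor genes RARG was higher with ascorbic acid. RARG (chr12:53210567-53232980, minus strand) encodes the receptor that predominates in skin. It had 12.7 and 12.3 CPM in ascorbic acid libraries, against 9.18, 8.97 and 9.01 CPM in controls. Both groups are tight and lie apart, with a log2 fold change of 0.47 ± 0.09, or 1.38-fold. RARG was called in all 17 alternative fits, with changes from 0.40 to 0.51. RARA, the most widely expressed receptor, had 20.02 and 19.76 CPM in ascorbic acid libraries, against 20.6, 21.1 and 23.0 CPM in controls. The RARA values do not overlap, yet the change of -0.11 ± 0.08 was not past the threshold. An antisense gene, RARA-AS1, and a further antisense transcript cover 20.4% of the RARA exon length. RARB, the receptor gene with the response element printed above, had 28.4 and 28.2 CPM in ascorbic acid libraries, against 29.6, 30.8 and 28.3 CPM in controls. Those groups overlap, and the change was -0.06 ± 0.07, not past the threshold. Whether the change of RARG differs from that of the other receptor genes was not tested. The printed elements were thus in the window of a called gene, CYP26A1, and of a gene that was not called, RARB.

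**Figure D2:**
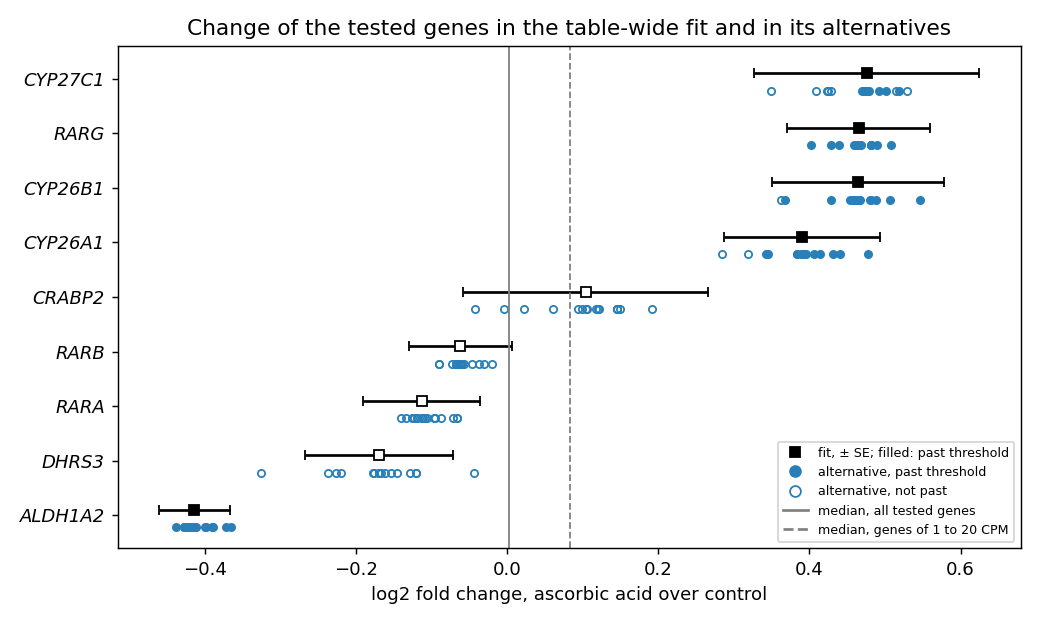
Log2 fold change of the 9 tested genes, ascorbic acid over control, with squares for the fit over all genes (bars are SE, filled squares are past the threshold) and circles for the alternative fits (filled where past the threshold). ALDH1A2 and RARG stay past the threshold in every alternative, and the solid and dashed lines give the medians of all tested genes (0.00) and of genes of 1 to 20 CPM (0.08).

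Ratios of counts within a library do not depend on how libraries are scaled. RARG took 20.8 and 20.4% of the counts of the 3 receptor genes in ascorbic acid libraries (95% Wilson intervals 19.4 to 22.3% and 18.9 to 21.99%), against 15.5, 14.8 and 14.9% in controls (14.3 to 16.7%, 13.4 to 16.3% and 13.5 to 16.5%). These intervals cover counting error only and are too narrow where read pairs were counted by their ends. The intervals of the ascorbic acid libraries do not meet those of the controls. CYP26A1 and CYP26B1 together had 16.3 and 14.7 counts per 100 ALDH1A2 counts in ascorbic acid libraries, against 8.52, 9.03 and 8.49 in controls. The ratio of breakdown to synthesis counts was thus 15.5 ± 1.14 with ascorbic acid (SD, n = 2) and 8.68 ± 0.300 in controls (SD, n = 3), with no overlap. These ratios use the same values that guided the choice of genes and are given as a description.

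**Figure D3:**
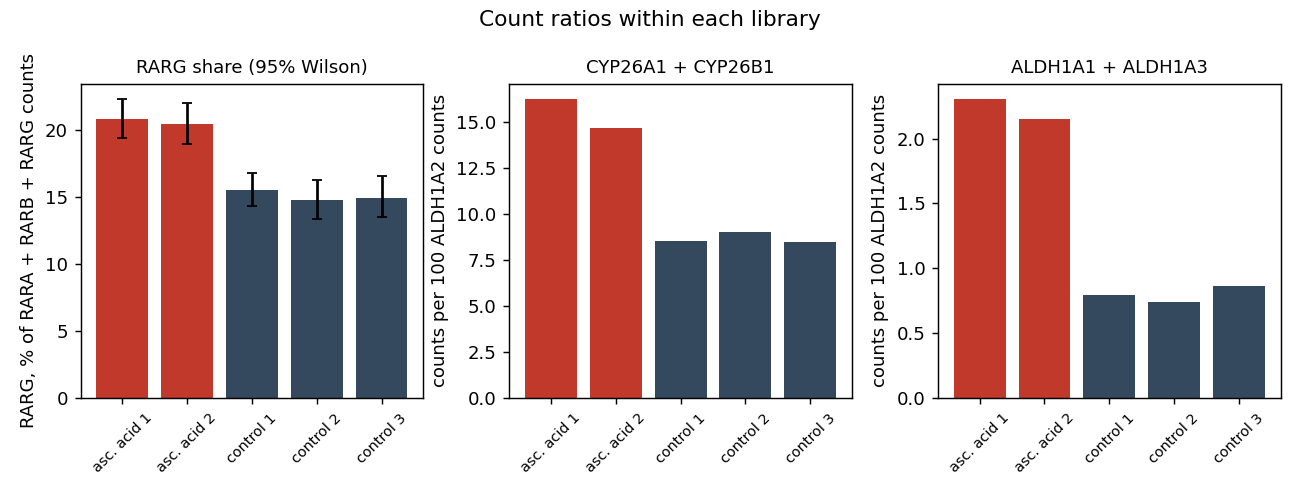
Ratios of counts within each library (ascorbic acid in red, control in dark blue, bars from 0), with RARG as a percentage of RARA, RARB and RARG counts and 95% Wilson intervals on the left, CYP26A1 and CYP26B1 per 100 ALDH1A2 counts in the middle, and ALDH1A1 and ALDH1A3 per 100 ALDH1A2 counts on the right. Both ascorbic acid libraries stand above all 3 controls in each panel, at 20.8 and 20.4% against 14.8 to 15.5% for RARG.

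Other genes of the pathway were taken from 4 lists with 88 genes, of which 57 could be tested. In edgeR's quasi-likelihood test 8 of them rose, 3 fell and 46 did not pass, with a median log2 fold change of 0.02 beside 0.00 over all tested genes. The 11 called are 19.3% of the 57, beside 14.3% called over all tested genes and 16.0% over genes of 1 to 20 CPM, so the share is near the background and is not read as a result about these lists. The remaining 31 had at most 17 counts in any library.

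ALDH1A1 and ALDH1A3, retinal dehydrogenase genes at a far lower level than ALDH1A2, rose, and the related ALDH8A1 did not pass (0.04 ± 0.29, with the sign turned by cyclic loess, -0.13, and without control replicate 2, -0.15). Of the 8 genes on the list of other retinal dehydrogenases and breakdown enzymes 5 were tested, 2 rose, 0 fell and 3 did not pass (median 0.45). The 2 are 40.0% of the 5, beside 8.53% higher over all tested genes and 14.0% over genes of 1 to 20 CPM (median 0.08). With 5 genes tested, this share and median are not read as a result about the list. ALDH1A3 had 1.84 and 1.45 CPM in ascorbic acid libraries, against 0.764, 1.03 and 0.607 CPM in controls, which is 1.04 ± 0.27 on the log2 scale (edgeR adjusted p = 0.0098). ALDH1A1 had 1.11 and 1.22 CPM in ascorbic acid libraries, against 0.604, 0.211 and 0.809 CPM in controls, which is 1.10 ± 0.35 on the log2 scale (edgeR adjusted p = 0.0347). Both treated libraries lie above all controls for either gene, though the controls of ALDH1A1 are scattered, with 8 to 34 counts. The ALDH1A3 call ended without ascorbic acid replicate 1 (0.86, edgeR adjusted p = 0.136). The ALDH1A1 call ended without ascorbic acid replicate 1 or 2 or without control replicate 1 or 2 (0.75 to 1.22, edgeR adjusted p = 0.0833 to 0.154) and with DESeq2 (1.10). With cyclic loess both calls ended (0.81 for ALDH1A3 and 0.98 for ALDH1A1). Together the 2 genes had 2.23 ± 0.110 counts per 100 ALDH1A2 counts with ascorbic acid (SD, n = 2) and 0.800 ± 0.0596 in controls (SD, n = 3). CYP2S1 (0.45 ± 0.19) and CYP1B1 (0.41 ± 0.20), P450 genes whose enzymes can oxidise retinoids, did not pass. Without ascorbic acid replicate 1 CYP1B1 passed (0.71, edgeR adjusted p = 0.0411), and without ascorbic acid replicate 2 it was at 0.04.

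On the list of uptake, storage and conversion to retinal, 11 of 27 genes were tested, 1 rose, 0 fell and 10 did not pass (median 0.02). The 1 is 9.09% of the 11, near the 8.53% of all tested genes called higher. RDH10, the retinol dehydrogenase that makes retinal in the embryo, had -0.07 ± 0.05 and did not pass, nor did LRAT (0.43 ± 0.30), which esterifies retinol for storage. STRA6, the membrane receptor for retinol-binding protein, had 14 and 10 counts in ascorbic acid libraries and 2 to 6 in controls and was too low to test.

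All 21 binding proteins, partner receptors and cofactors were tested, of which 2 rose, 3 fell and 16 did not pass (median -0.04). Those called are 23.8% of the 21, beside 14.3% of all tested genes. PRAME, a tumour antigen known to bind retinoic acid receptors and repress their signalling, had 48.4 and 44.9 CPM in ascorbic acid libraries, against 30.4, 27.4 and 30.3 CPM in controls. Its log2 change was 0.67 ± 0.07 (edgeR adjusted p = 3.3e-08). PRAME was called in all 17 alternatives. The coactivator subunit gene MED1 (-0.17 ± 0.05), the corepressor deacetylase gene HDAC3 (-0.17 ± 0.05) and the orphan receptor gene NR2F1 (-0.18 ± 0.06) fell, with edgeR adjusted p from 0.0126 to 0.0274. Each of these 3 calls ended with library totals (-0.14 to -0.13) and with cyclic loess (-0.15 to -0.12), and with several libraries left out in turn. Those were ascorbic acid replicate 1, control replicate 1 and control replicate 2 for MED1 (-0.16 to -0.13), ascorbic acid replicate 2 and control replicate 1 for HDAC3 (-0.15 to -0.11), and both ascorbic acid replicates and control replicate 3 for NR2F1 (-0.19 to -0.13). The HDAC3 and NR2F1 calls also ended with a filter of 5 CPM in 2 libraries (-0.14 and -0.16), and the NR2F1 call with upper-quartile factors (-0.17). The partner receptor genes RXRA (0.02 ± 0.07), RXRB (-0.16 ± 0.06) and RXRG (0.21 ± 0.32) did not pass. The sign of RXRA turned without ascorbic acid replicate 1 (-0.06) or control replicate 1 (-0.03), and that of RXRG with cyclic loess (-0.03).

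Of 32 genes known to respond to retinoic acid 20 were tested, 3 rose, 0 fell and 17 did not pass (median 0.03). The 3 are 15.0% of the 20, near the 14.3% of all tested genes called in either direction (8.53% higher). TNFAIP2, induced by retinoic acid in promyelocytic leukaemia cells, had 2.16 and 1.82 CPM in ascorbic acid libraries, against 1.10, 1.03 and 0.924 CPM in controls (log2 fold change 0.96 ± 0.23, edgeR adjusted p = 0.00549). TGM2, tissue transglutaminase, had 2.21 and 2.32 CPM in ascorbic acid libraries, against 1.17, 1.47 and 1.21 CPM in controls (0.82 ± 0.21, edgeR adjusted p = 0.00956). The groups do not overlap for either gene. The TNFAIP2 call ended without ascorbic acid replicate 1 (0.83, edgeR adjusted p = 0.0853), and the TGM2 call without ascorbic acid replicate 2 or control replicate 1 (0.78 and 0.75, edgeR adjusted p = 0.0668 and 0.0557). The TGM2 call also ended with cyclic loess (0.62). HOXB4 and HOXB5, classical retinoic acid targets of the embryonic axis, did not pass, with HOXB4 at -0.32 ± 0.11 and HOXB5 at -0.24 ± 0.09. HOXB4 passed with DESeq2 size factors (-0.33), no filter (-0.32), cyclic loess (-0.40) or without control replicate 1 (-0.41). HOXA5 had -0.03 ± 0.05 and did not pass, and its sign turned with library totals and cyclic loess (0.01 in both) and without ascorbic acid replicate 1 (0.01).

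**Figure D4:**
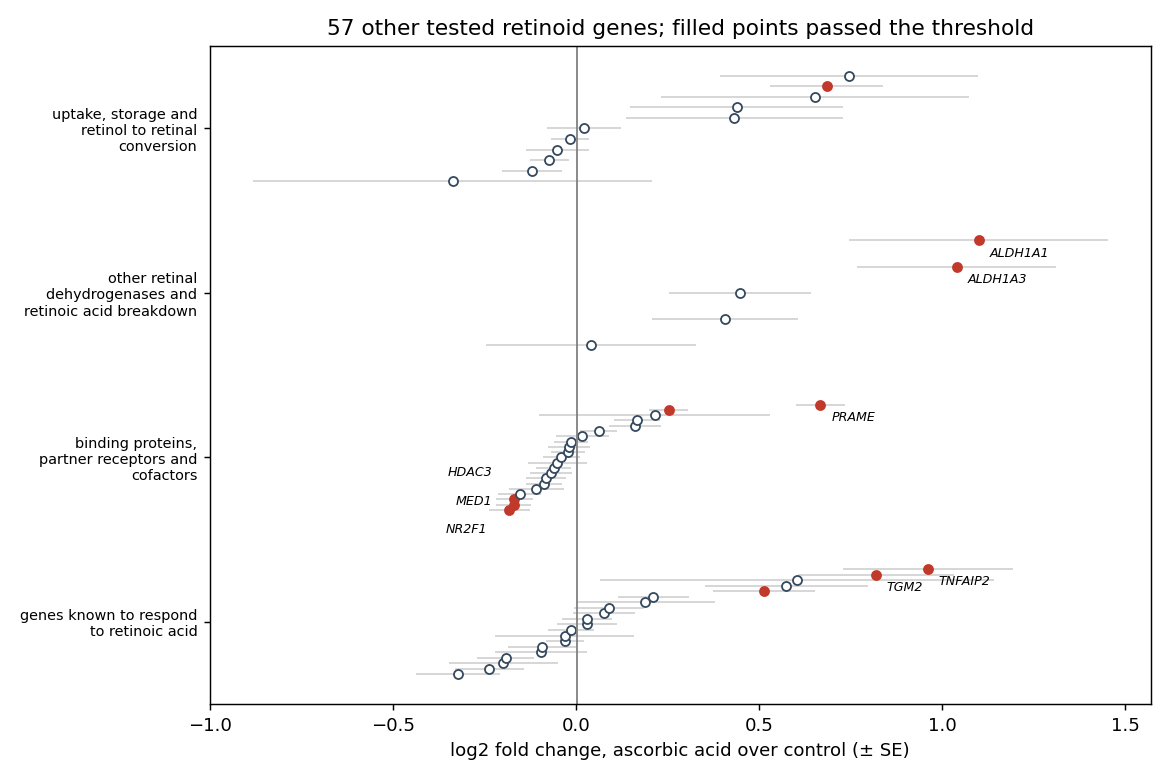
Log2 fold change of the 57 other tested retinoid genes, ascorbic acid over control, in 4 lists, with SE as bars, filled red points for genes past the threshold and the median of all tested genes as a vertical line. The called genes are 8 to the right, up to 1.10 for ALDH1A1, and 3 close to the line on the left, from -0.18 to -0.17.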

How the data were processed

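Poly(A) RNA of HEK293T cells was sequenced from 2 ascorbic acid and 3 control libraries. The authors deposited raw read counts per gene symbol. The submitters' processing notes name hg38, Trimmomatic 0.39, STAR, featureCounts and DESeq2, and the annotation, the use of strand and the handling of multiple matches are not stated, so counts of paralogs and overlapping genes are uncertain. Columns were matched to samples by name, taking "vc" for vitamin C and "con" for control. Within a group, libraries differed beyond counting noise (chi-square per degree of freedom 3.81 to 6.85).

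From the deposited counts, genes were filtered with filterByExpr and scaled with TMM factors. The factors lay apart by group, at 1.011 and 1.025 in ascorbic acid libraries and 0.984 to 0.994 in controls. Groups were compared with edgeR 4.0.16 (R 4.3.3) by the two-sided quasi-likelihood test with a robust prior and no covariates. Benjamini-Hochberg adjustment ran over 15271 genes. SE is the absolute log2 change over the square root of F. The procedure was run on simulated counts with the same dispersion for every gene. Recovery was required there only for changes larger than those of the members. The members and lists were chosen with earlier results of these data known. Named were all members and, of each other list, up to 8 called genes by smallest p. Other genes were named after their values were seen. Some of the genes so chosen are not reported here. The alternatives were DESeq2 1.42.0, limma-voom (limma 3.58.1), 3 other scalings, 2 filters, a replicate block, a prior that was not robust, cyclic loess, halved counts, thinning and each library left out. Gene positions and exon lengths come from GENCODE release 29 (GRCh38).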

Additional observations from a re-analysis of the deposited data

How the results depend on the processing

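The number of members called was 5 in the fit reported and stayed within 1.5 times of it in all alternatives but the replicate block (3), cyclic loess (3) and the omission of ascorbic acid replicate 1 (2), and leaving out 1 library in turn gave 2 to 5. Of the other retinoid genes 11 were called, 6 with a filter of 5 CPM in 2 libraries (39 genes tested), 5 with cyclic loess and 6 to 11 with 1 library left out. Over all genes 2182 were called, 1447 with cyclic loess, 1880 with the replicate block and 1180 (without control replicate 1) to 2047 with 1 library left out. The replicate numbers are not said to mark a shared culture. Same-numbered libraries deviated from their group means with correlations of 0.025 and 0.011 over all tested genes. These values are not independent, since the 2 ascorbic acid libraries deviate from their mean in mirror image. Counting noise also enters them, so they cannot decide whether same-numbered libraries shared a culture. Replicate 3 had only a control library, so the comparison under the block rested on replicates 1 and 2. Under the block the CYP26A1, CYP27C1, ALDH1A3 and NR2F1 calls ended. The sign of CRABP2 turned with cyclic loess (-0.043), and with 1 library left out its change ran from -0.004 (without ascorbic acid replicate 1) to 0.192. Cyclic loess also turned ALDH8A1 (-0.131), RXRG (-0.031) and HOXA5 (0.005), and library totals turned HOXA5 (0.011). With 1 library left out the change ran from -0.15 to 0.237 for ALDH8A1, from -0.062 to 0.082 for RXRA and from -0.086 to 0.014 for HOXA5. None of the other genes recomputed, which are the members tested and the pathway genes given with a fold change, changed sign. The cause of these differences was not tested. With 1 ascorbic acid library left out, the remaining one is assumed to vary like the controls. CYP27C1, at 176 to 218 counts with ascorbic acid and 98 to 181 in controls, and ALDH1A1, at 8 to 54 counts, rest on few counts.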
